A study of Mus musculus with 40 samples.

Results

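C/EBPa-only sites were defined as C/EBPa peaks that both mouse strains shared without treatment and that overlapped no peak of PU.1 and no peak of p65. C/EBPa, PU.1 and p65 were mapped by ChIP-Seq, which sequences the DNA that an antibody brings down with a protein. Of 40060 C/EBPa peaks of untreated C57BL6/J macrophages, 33329 overlapped a C/EBPa peak of untreated BALBc/J macrophages by at least 1 bp. Of these shared sites, 10807 overlapped no PU.1 peak of either strain, untreated or treated. Removing sites with a p65 peak in any of the 4 p65 libraries left 5946 C/EBPa-only sites, 17.8% of the shared sites. The sites were chosen by the untreated C/EBPa peaks and by the absence of PU.1 and p65 peaks, so these are given as a description. The C/EBPa peaks after treatment, the histone marks and the position were not used in it. Other shared sites were set beside them. "Sites with PU.1 and no p65" are the 3167 with a PU.1 peak in both untreated strains and no p65 peak. "Sites with p65 and no PU.1" are the 4861 with no PU.1 peak in any library and a p65 peak in at least 1.

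The cells were macrophages drawn into the peritoneum of C57BL6/J and BALBc/J mice by thioglycollate broth and cultured overnight. They received fresh medium alone or fresh medium with 100 ng per ml of Kdo2-lipid A (KLA), an agonist of Toll-like receptor 4, for 1 hr, or for 4 hr in some RNA-Seq samples. A single library per strain and treatment was made for C/EBPa, PU.1 and both histone marks, and p65 had 2 replicate libraries per strain, all after KLA. RNA-Seq had 6 libraries, GRO-Seq, which measures RNA still being made, had 4, and nothing in the labels tells separate animals from repeat samples. Shares of sites therefore lack replicates of the same group and carry no test, and the strains are shown side by side as the only measure of spread. With 2 libraries against 2, an exact two-sided permutation test cannot go below p = 0.333.

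C/EBPa is a basic leucine zipper (bZIP) factor that binds DNA as a dimer, and PU.1 is an ETS factor that macrophages need to form. In macrophages the pair often binds close together at enhancers, where each helps the other to displace nucleosomes. C/EBPa also works in liver and fat, which lack PU.1. H3K4me2 marks promoters and enhancers, and H3K27Ac marks the active ones. p65 is the NF-kB subunit that enters the nucleus after Toll-like receptor signalling.

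The cells matched their label. All 12 macrophage marker genes in the expression table had RNA in both strains untreated, from 307 to 52700 exon tags per 10 M tags (M, mega), and they summed to 87350 tags in C57BL6/J and 94225 in BALBc/J. Tags were not corrected for transcript length. Markers of mesothelial cells and fibroblasts summed to 3128 and 4868 tags, of neutrophils to 528 and 487, of eosinophils to 94.8 and 70.2, of mast cells to 68.9 and 92.6 and of B cells to 45.9 and 71.3. T and NK cell markers summed to 3.53 and 13.0 tags with 6 and 4 of 7 at 0, and adipocyte markers to 0 and 1.56 with 6 and 5 of 6 at 0. ChIP-Seq libraries held 7.10 to 14.4 M tags, and 1 read position in the C/EBPa libraries was worth 1.75 to 2.00 tags per 10 M.

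Some C/EBPa-only sites lay at gene starts, where the reference holds their DNA. On the chromosomes searched, 234 sites had their centre between 250 bp before and 50 bp after a start, at 233 genes, and 187 of these genes (80.3%) had promoters in the RefSeq table of build GRCm38.p6. The letters TTGCNNAA, a loose form of the C/EBP palindrome TTGCGCAA, were searched on both strands. They stood in 52 of the 253 promoters of these genes (20.6%), in 18.9% of promoters at sites with p65 and no PU.1, in 13.7% at sites with PU.1 and no p65, in 16.2% at all shared C/EBPa sites and in 10.8% of all 32851 promoters of 300 bases. The full palindrome TTGCGCAA was rare and gave another order. It stood in 2 promoters at C/EBPa-only sites (0.79%) and in 7 at sites with PU.1 and no p65 (1.81%). It stood in 3 at sites with p65 and no PU.1 (0.91%), in 1.17% at all shared sites and in 0.18% of all promoters. Each sequence with TTGCGCAA also counts for TTGCNNAA. GAGGAAGT, letters bound by PU.1, stood in 1.58% of promoters at C/EBPa-only sites, in 5.70% at sites with PU.1 and no p65, in 1.83% at sites with p65 and no PU.1, and in 3.20% of all promoters. A match is a description of the letters and not a binding site. Promoters of 5 genes show what lies under strong C/EBPa-only peaks. They are the 250 bases before the start on the gene's strand, with TTGCNNAA and TGATGCAA, letters of a C/EBP and ATF heterodimer held by 0.895% of all promoters, in capitals. The 12 strongest sites with a single reference promoter were examined, and 5 of these promoters held TTGCNNAA. They are shown except Myst2, whose match at -232 bp was the farthest from its peak centre (-13 bp). Tm9sf4 is 1 of the 7 without a match and shows a strong peak over a promoter without these letters.
Sephs2: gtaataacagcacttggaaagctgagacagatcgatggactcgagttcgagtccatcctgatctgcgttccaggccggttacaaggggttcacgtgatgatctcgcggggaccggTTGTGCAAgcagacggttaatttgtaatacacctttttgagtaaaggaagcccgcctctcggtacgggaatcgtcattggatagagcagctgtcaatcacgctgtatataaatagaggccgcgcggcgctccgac
Pycr1: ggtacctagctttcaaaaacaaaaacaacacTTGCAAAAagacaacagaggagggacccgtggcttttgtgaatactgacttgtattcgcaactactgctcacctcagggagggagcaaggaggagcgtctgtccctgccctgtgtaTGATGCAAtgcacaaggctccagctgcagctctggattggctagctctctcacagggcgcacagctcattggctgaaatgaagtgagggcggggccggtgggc
2610008E11Rik: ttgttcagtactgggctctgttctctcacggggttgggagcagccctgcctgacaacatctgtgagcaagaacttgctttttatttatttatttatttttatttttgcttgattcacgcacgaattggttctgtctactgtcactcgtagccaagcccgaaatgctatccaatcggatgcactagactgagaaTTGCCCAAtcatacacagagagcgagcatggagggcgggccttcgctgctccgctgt
Ppt1: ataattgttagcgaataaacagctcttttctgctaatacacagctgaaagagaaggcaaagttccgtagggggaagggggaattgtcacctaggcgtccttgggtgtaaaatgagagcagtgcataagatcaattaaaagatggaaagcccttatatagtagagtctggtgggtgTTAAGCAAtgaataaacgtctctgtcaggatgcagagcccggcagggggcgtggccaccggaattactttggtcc
Tm9sf4: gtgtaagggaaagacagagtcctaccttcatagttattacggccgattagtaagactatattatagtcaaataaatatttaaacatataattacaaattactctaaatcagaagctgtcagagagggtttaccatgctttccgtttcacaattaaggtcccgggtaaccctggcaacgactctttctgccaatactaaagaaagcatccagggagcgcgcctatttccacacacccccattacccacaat

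These promoters lie at chr7:127274060-127274309 (Sephs2, minus strand), chr11:120643749-120643998 (Pycr1, minus), chr10:79097601-79097850 (2610008E11Rik, minus), chr4:122835977-122836226 (Ppt1, plus) and chr2:153161051-153161300 (Tm9sf4, plus) of GRCm38.p6. Peaks are on build mm9, so peak and match could be compared only as distances from each build's own start, and these starts may differ. The peak centre of Sephs2, the gene of a selenophosphate synthetase, stood at -132 bp and the match at -131 bp. At Pycr1, the gene of an enzyme of proline synthesis, the centre stood at -173 bp, TTGCNNAA at -215 bp and TGATGCAA at -99 bp. At 2610008E11Rik the centre and the match stood at -59 and -53 bp, and at Ppt1, the gene of a lysosomal thioesterase, at -64 and -71 bp. Over the 34 genes with a match and a single reference promoter, the match lay a median of 28.5 bp from the peak centre, and within 50 bp at 25. C/EBPa at Sephs2 had 186.4 and 215.7 tags per 10 M untreated (C57BL6/J first here and throughout) and 74.4 and 122.9 after KLA, lower in both strains. Pycr1 had 134.3 and 150.8 untreated and 175.4 and 174.7 after KLA, higher in both.

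The label "lacking PU.1" held only for the peak itself. The gap from a C/EBPa-only site to the nearest PU.1 peak of the 4 libraries had a median of 1099 bp, and 2014 sites (33.9%) had a PU.1 peak within 500 bp. A p65 peak lay within 500 bp of 1554 sites (26.1%), and 3588 sites had neither factor within that distance. Of the 10 strongest C/EBPa-only sites 9 had PU.1 and 8 had p65 within 500 bp. Factor peaks are 200 bp wide, so such neighbours can belong to 1 regulatory region. At the border of the rule, 60 sites had a PU.1 peak 0 to 9 bp away and median tags of 41.1 and 43.9, and 46 shared sites without p65 that overlapped PU.1 by 1 to 10 bp had medians of 39.1 and 50.9. The 3 sites nearest to the border had a gap of 0 bp and lay 2430 bp from the start of Tac4, 179 bp from that of Pyroxd2 and 56 bp from that of Wfs1.

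C/EBPa-only sites were on the weak side of C/EBPa binding. Their untreated tags ran from 14.0 to 446.9 per 10 M in C57BL6/J with a median of 30.1, and from 12.3 to 470 in BALBc/J with a median of 36.8. All shared sites had medians of 42.1 and 52.6, sites with PU.1 and no p65 34.1 and 40.3, and sites with p65 and no PU.1 42.1 and 54.4. Ranked by mean untreated tags among all shared sites, 40.4% of C/EBPa-only sites were in the lowest quartile and 9.57% in the highest. Tags differed more than 2-fold between the strains at 491 sites (8.26%), against 7.25% of all shared sites.

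The 10 strongest sites spanned 294.6 to 446.9 tags in C57BL6/J and 308.6 to 470 in BALBc/J, and all 10 lay in H3K4me2 regions of all 4 libraries. The strongest, chr5:112695506-112695706, lay inside a transcript 10120 bp upstream of the start of Tpst2, the gene of a tyrosylprotein sulfotransferase. It had 446.9 and 470 tags untreated and 364.1 and 364.7 after KLA, with PU.1 at 133 bp. The next, chr5:111032109-111032309, lay 314 bp upstream of Galnt9, a glycosyltransferase gene, at 432.9 and 440.1 untreated and 360.3 and 374.3 after KLA. A site 24369 bp upstream of Ifngr2, the gene of an interferon gamma receptor subunit, held 394.8 and 398.1 untreated and 377.5 and 424.2 after KLA. A site 843 bp inside Nlrp3, which encodes the sensor of an inflammasome, had 348.7 and 412.1, then 287.9 and 301.4. At these 4 sites no treated library was under 287.9 tags. Those of Tpst2, Galnt9 and Nlrp3 were still lower in the test given below (limma, adjusted p under 0.05). Their log2 changes were -0.32, -0.24 and -0.35. Other strong sites were assigned to Gm13498, Atp2c2, Nfil3, Cdkl4 and Naa20, with the start of Gm13498 222185 bp away. After KLA the Gm13498 site held 268.8 and 305.2 tags and that of Cdkl4 282.2 and 337.8. The Atp2c2 site held 101 and 161.2. That of Nfil3 had no overlapping peak in either strain. That of Naa20 had none in C57BL6/J and 134.4 tags in BALBc/J.

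Among sites within 1000 bp of a start, the strongest after Galnt9 and Nlrp3 lay at AI987944, Map3k8, Tuba1c, 2310040G24Rik, Tm9sf4, Mnt, Fbxo32 and Nfil3. Map3k8 encodes a kinase that carries Toll-like receptor signals to the MAP kinases, and its site held 228.5 and 254.3 tags untreated and 175.4 and 170.8 after KLA. Mnt, the gene of a Max-binding repressor, held 216.5 and 203.4, then 196.4 and 216.9. Fbxo32, the gene of a ubiquitin ligase subunit, held 200.4 and 219.2, then 143 and 147.8. Of these 10 sites none was called in the test for changed C/EBPa given below (limma, 0 of 10 called). Over all tested sites 4.87% were called higher and 5.18% lower. The sites of Galnt9, Nlrp3, Map3k8, 2310040G24Rik and Fbxo32 were lower at an adjusted p under 0.05 (limma). Their log2 changes, -0.24 to -0.50, were under the size of 1 needed for a call.

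By position, 900 C/EBPa-only sites (15.1%) were centred within 1000 bp of a start, 2800 (47.1%) lay inside a transcript beyond that distance and 2246 (37.8%) outside transcripts. The median distance to the nearest start was 15165 bp. The share near a start was 16.3% for all shared sites, 20.6% for sites with PU.1 and no p65, and 15.1% for sites with p65 and no PU.1. The files give transcript ends and no exons, so exons and introns were not separated. The 3321 sites within 20000 bp of a start served 2837 genes as the nearest start. Of these genes 2423 had 1 site, 57 had 3 or more, and 4 was the highest number, reached for example at Fcgr4, an Fc receptor gene, Hspa8, a chaperone gene, and Bhlhe41, a circadian repressor gene.

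Fewer C/EBPa-only sites carried histone marks than other C/EBPa sites of the same libraries. H3K4me2 regions covered 57.5% and 56.9% of them untreated, against 78.6% and 78.5% of all shared sites, 77.3% and 76.2% of sites with PU.1 and no p65, and 73.9% and 74.9% of sites with p65 and no PU.1. H3K27Ac regions covered 38.9% and 39.5%, against 57.3% and 57.9%, 52.7% and 53.2%, and 53.7% and 54.5%. The gap between these sets was wider than the gap between the strains for each mark. It was narrower at strong sites than at weak ones. In the lowest quartile of untreated tags H3K4me2 covered 42.9% and 42.5%, against 68.3% and 67.0% with PU.1 and no p65. In the highest it covered 85.9% and 87.2%, against 89.9% and 90.1%. H3K27Ac covered 23.7% and 24.3%, against 41.8% and 41.9%, in the lowest quartile. In the highest it covered 72.6% and 73.6%, against 74.4% and 76.0%. Both marks in both strains were found at 1737 C/EBPa-only sites (29.2%), H3K4me2 alone at 906 (15.2%), H3K27Ac alone at 131 (2.20%) and neither mark at 1948 (32.8%), while the strains differed at 1224. Neither mark was found at 13.3% of all shared sites, 14.3% of those with PU.1 and no p65, and 15.2% of those with p65 and no PU.1.

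The sites near a start and the sites away from one differed in their marks. Near a start 91.6% and 91.3% lay in H3K4me2 and 78.4% and 81.0% in H3K27Ac untreated. Outside transcripts the shares were 50.5% and 50.2% for H3K4me2 and 32.1% and 33.4% for H3K27Ac. Only 1.28% of the sites with neither mark were near a start, against 35.5% of the sites with both.

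C/EBPa could be strong where no mark was called. In no H3K4me2 region of any library, the strongest site (chr2:105268356-105268556) lay 28980 bp upstream of Rcn1, the gene of a calcium-binding protein of the endoplasmic reticulum. It had 244.5 and 284.1 tags untreated and 251.7 and 334 after KLA, no H3K27Ac region in any library, and its nearest PU.1 peak was 2054 bp away. The next sites, nearest to Atxn7l1, Mterfd3 and Kdm6a, the gene of an H3K27 demethylase, held 142.3 to 219.2 tags untreated and 154.4 to 190 after KLA, with PU.1 1856 to 14969 bp away. The fifth, inside a transcript 53329 bp from the start of Pdcd1lg2, an immune checkpoint ligand gene, had PU.1 at 185 bp and H3K27Ac in 2 libraries. It held 166.3 and 149.1 tags untreated and 76.3 and 86.4 after KLA.

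Histone marks were less frequent at C/EBPa-only sites farther from PU.1. At the 635 C/EBPa-only sites with PU.1 within 100 bp, H3K4me2 covered 89.3% and 89.6% and H3K27Ac 67.6% and 70.7% untreated. At the 684 sites more than 10000 bp from any PU.1 peak, H3K4me2 covered 27.05% and 27.05% and H3K27Ac 2.92% and 3.36%. Sites near PU.1 were also stronger (medians of 36.1 and 42.1 tags within 100 bp, 24.1 and 29.8 beyond 10000 bp) and more often near a start (32.4% and 4.53%). Within the lowest quartile of tags, H3K4me2 still covered 78.2% and 78.2% of sites with PU.1 within 500 bp and 30.2% and 29.7% of those without, and within the highest quartile 96.0% and 96.8% against 76.4% and 78.1%. The part of gene starts in this order was not tested.

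**Figure D1:**
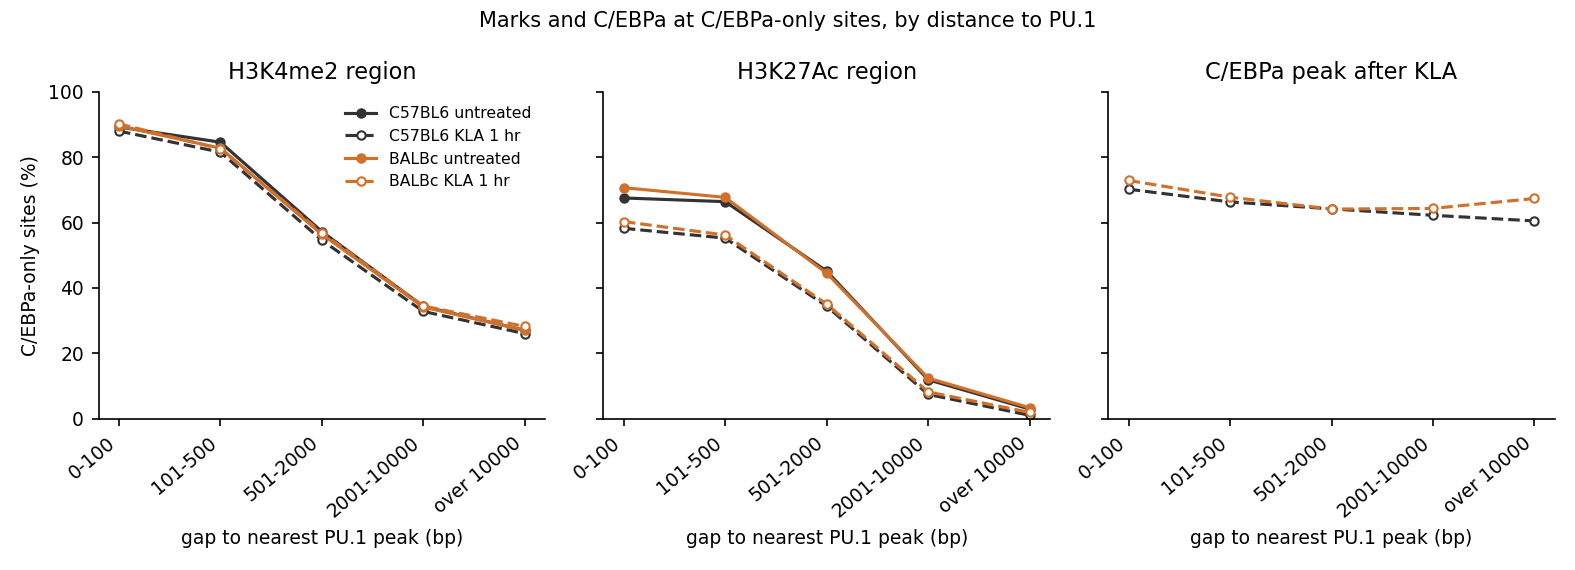
Percent of C/EBPa-only sites in an H3K4me2 region (left), in an H3K27Ac region (middle) and with a C/EBPa peak after KLA (right), by gap in bp to the nearest PU.1 peak, with 1 point per library. Both marks drop with distance in all 4 libraries, H3K27Ac from 67.6% and 70.7% to 2.92% and 3.36% untreated, while C/EBPa after KLA stays between 60.5% and 72.9%.

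After 1 hr of KLA a C/EBPa peak overlapped 3830 C/EBPa-only sites in C57BL6/J (64.4%) and 3946 in BALBc/J (66.4%). It did so in both strains at 3192 sites (53.7%), in neither at 1362 (22.9%), and in a single strain at 638 (C57BL6/J) and 754 (BALBc/J). All shared sites had shares of 80.6% and 81.3%, sites with PU.1 and no p65 60.1% and 60.7%, and sites with p65 and no PU.1 90.7% and 90.8%. p65 was measured after KLA only and PU.1 also in treated cells, so the absence or presence of these peaks chose all 3 sets partly on treated cells. Averaged over strains, 65.4% of C/EBPa-only sites had C/EBPa after KLA, and 76.8% of the 10807 sites when p65 was not used in the choice. A peak is listed only where it was called, and a site near the calling limit can leave the list with a small change. The median untreated tags, averaged over strains, were 43.5 for sites kept in both strains and 23.2 for sites kept in neither.

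Untreated C/EBPa tags went with this outcome. In the lowest quartile of tags 45.4% and 47.7% of C/EBPa-only sites had a peak after KLA, and in the highest 91.7% and 92.4%. In the same quartiles sites with PU.1 and no p65 had 36.0% and 37.0%, and 92.2% and 92.8%. Sites with p65 and no PU.1 had 76.8% and 78.6%, and 98.9% and 98.7%. The order of the 3 sets was the same in both strains in the 3 lower quartiles, and in the highest quartile C/EBPa-only sites and sites with PU.1 had nearly equal shares.

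**Figure D2:**
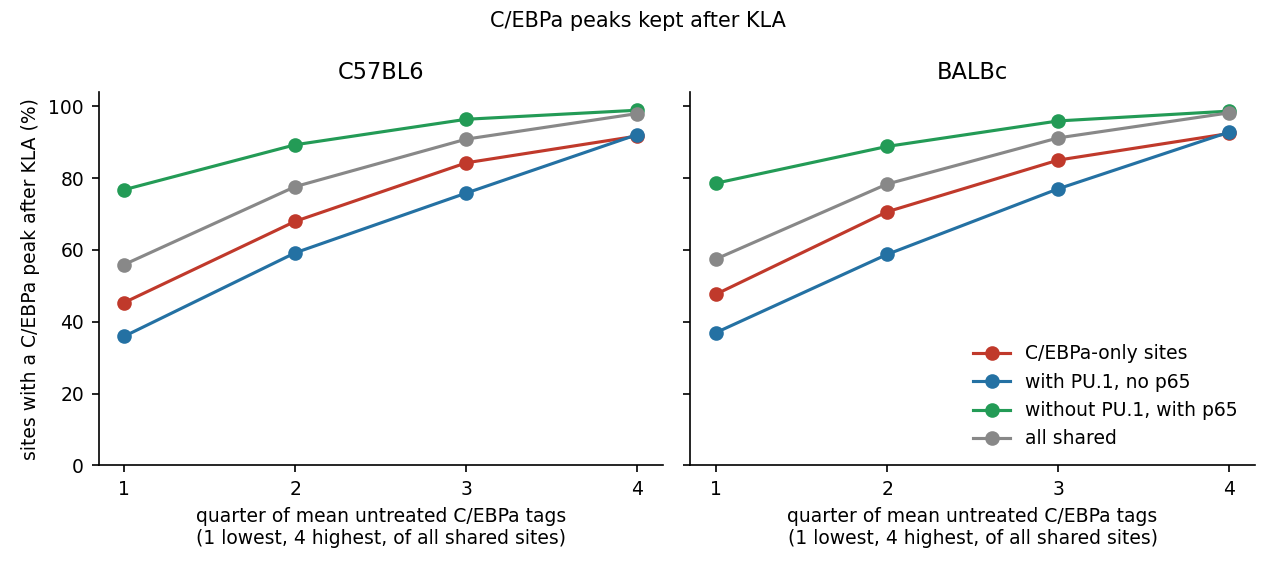
Percent of sites with a C/EBPa peak after KLA, by quartile of mean untreated C/EBPa tags, in each strain, for C/EBPa-only sites and 3 other sets of shared sites, with 1 library per point. C/EBPa-only sites run from 45.4% and 47.7% to 91.7% and 92.4%, between the set with PU.1 and the set with p65 in the 3 lower quartiles.

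PU.1 nearby and the marks were set against the kept sites within quartiles of tags. In the lowest quartile 44.9% and 49.4% of sites with PU.1 within 500 bp had C/EBPa after KLA, and 45.5% and 47.1% of those without. Over all C/EBPa-only sites, those with both marks were kept at 69.0% and 70.2% and those with neither mark at 59.7% and 63.6%. In the lowest quartile the shares were 46.7% and 48.7% with both marks and 45.8% and 49.5% with neither, a gap of no more than the strains' own. In the second quartile they were 63.1% and 64.8%, and 73.8% and 78.6%. In the third they were 78.9% and 78.9%, and 89.9% and 93.1%, and in the highest 88.4% and 89.8%, and 100% and 100% of only 44 sites. So, against sites with both marks, sites with neither had the lower share over all sites and the higher share within the 3 upper quartiles. Sites with H3K4me2 and no H3K27Ac were also above sites with both marks there. They had 70.5% and 72.7% in the second quartile, 92.0% and 93.0% in the third and 98.4% and 100% in the highest. Sites with H3K27Ac alone were few, with 77.1% and 71.4% of 35 sites in the third. Of the sites without an overlapping peak after KLA, 194 of 2116 in C57BL6/J and 172 of 2000 in BALBc/J had a C/EBPa peak within 300 bp. At 45 and 50 of these sites such a neighbour overlapped a C/EBPa peak of untreated cells of the same strain, which in BALBc/J can be the site's own. Counting all neighbours, 67.7% and 69.3% of C/EBPa-only sites had C/EBPa after KLA. The site 4841 bp upstream of Nfil3, with 358.8 and 308.6 tags untreated and no overlapping peak after KLA, had C/EBPa peaks 84 and 89 bp away, and the site near Naa20 had one 223 bp away in C57BL6/J.

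Changes in C/EBPa tags were tested with limma at the 24555 shared sites with a peak in all 4 C/EBPa libraries, on log2(tags per 10 M + 10) with terms for KLA and strain. A call needed an adjusted p under 0.05 and a log2 change of at least 1. Over all tested sites 4.87% were called higher and 5.18% lower after KLA. Of the 3192 C/EBPa-only sites tested, 37 (1.16%) were higher and 206 (6.45%) lower, with a median of -0.18 where all tested sites had -0.09. Sites with PU.1 and no p65 had 3 higher and 199 lower of 1554, and sites with p65 and no PU.1 356 and 130 of 4176. Because all 3 sets were chosen partly on treated cells, these differences may be built in by the choice to an unknown degree. Sites that lost their peak in any library were outside this test, so these counts do not describe all C/EBPa-only sites. With libraries centred on their medians, C/EBPa-only sites had 45 higher and 167 lower, against 5.77% and 4.13% of all tested sites.

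The largest increases began mostly at weak sites. At Gm11110 (chr17:57246384-57246584) C/EBPa had 14.0 and 14.0 tags untreated and 78.2 and 57.6 after KLA, a rise of 1.69 ± 0.25 (SE, limma, adjusted p = 1.15e-06). A site 39603 bp from the start of Srrm1, a splicing factor gene, had 54.1 and 70.1 and then 232.6 and 176.6 (1.57 ± 0.18, limma adjusted p = 4.48e-09). Sites assigned to Rnf19b, a ubiquitin ligase gene, Cd83, an activation marker of antigen-presenting cells, and Mmd rose as well (1.55, 1.51 and 1.45). They lay 22165, 17431 and 29033 bp from these starts. Treated tags exceeded untreated tags in both strains at all 5. The Srrm1, Rnf19b and Cd83 sites had PU.1 within 358 bp, and p65 lay 12 bp from the Cd83 site.

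Of the 5 largest decreases 4 are given here, at sites with 87.7 to 201.7 untreated tags and 13.4 to 40.3 tags after KLA. The site inside 9330111N05Rik went from 182.4 and 191.1 to 34.3 and 28.8 (-2.25 ± 0.21, limma adjusted p = 2.59e-11). Sites assigned to Wwox, Mrps33, a mitochondrial ribosome gene, and Nsmce2, a SUMO ligase gene, fell as well (-2.01, -1.94 and -1.90). They lay 176437, 32242 and 18053 bp from these starts. A site 9855 bp inside Atp2c2, a calcium pump gene and among the 10 strongest, had 342.7 and 377, then 101 and 161.2 (-1.42 ± 0.12, limma adjusted p = 2.32e-12). The untreated and treated ranges did not overlap at any of these sites.

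**Figure D3:**
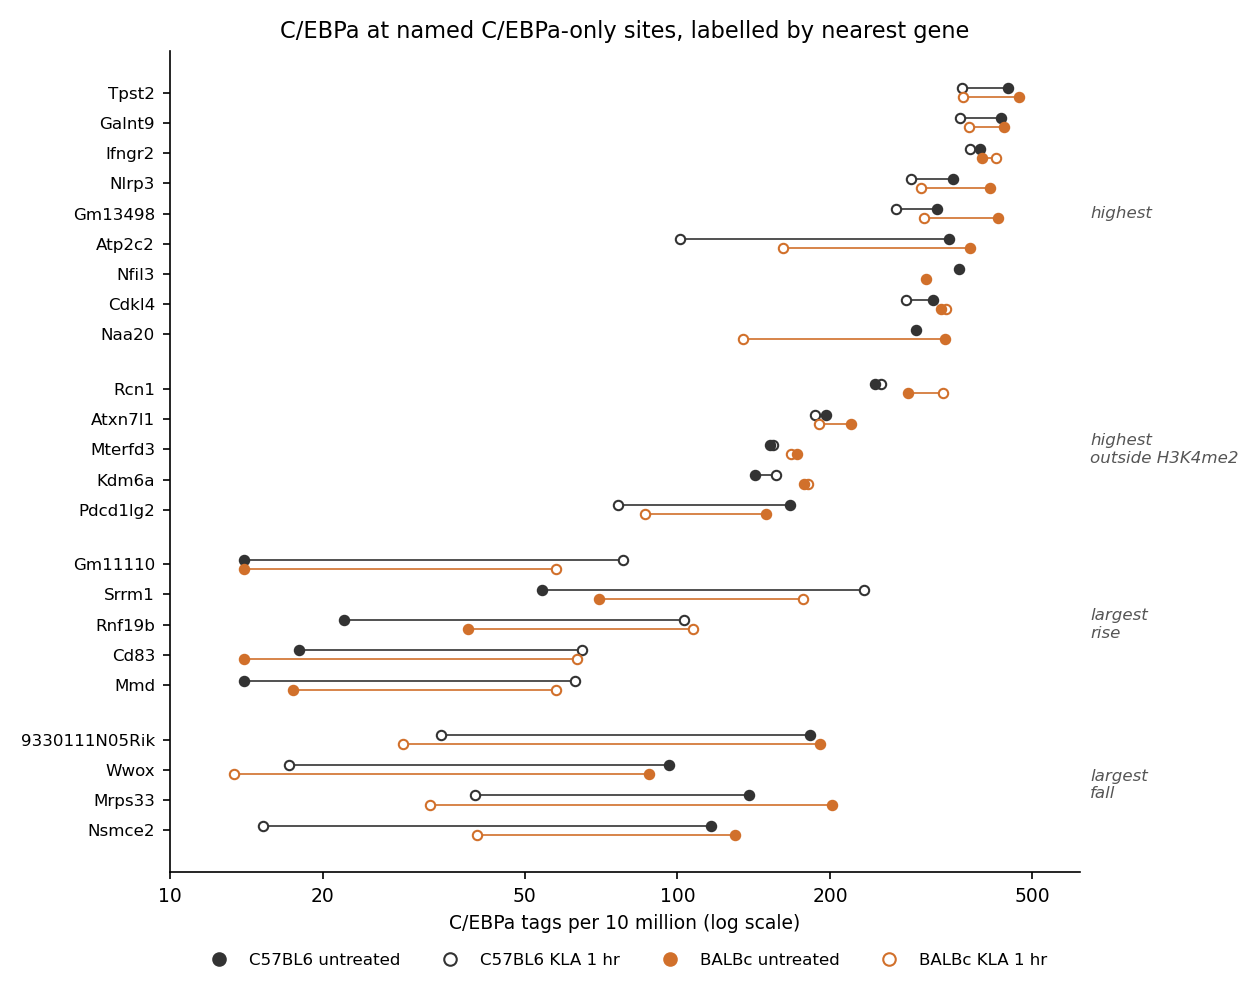
C/EBPa tags per 10 M (log axis) at 9 of the 10 strongest C/EBPa-only sites, the 5 strongest outside H3K4me2, the 5 largest rises and 4 of the 5 largest falls, by nearest gene, with filled points untreated and open points after KLA in each strain. The 9330111N05Rik site, at 182.4 and 191.1 untreated, stands at 34.3 and 28.8 after KLA; a missing open point is a site with no overlapping peak in that library.

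H3K27Ac, measured in separate libraries, moved with C/EBPa at the called sites. At the 37 C/EBPa-only sites with higher C/EBPa, H3K27Ac covered 35.1% and 37.8% untreated and 75.7% and 75.7% after KLA. At the 206 with lower C/EBPa it covered 58.3% and 55.3%, then 24.3% and 25.7%. At the 2949 sites not called the shares were 40.2% and 40.9%, then 35.5% and 36.4%. H3K4me2 did not show this pattern, with 62.2% and 54.1% untreated and 54.1% and 62.2% after KLA at the higher sites, and 77.7% and 75.2%, then 74.3% and 75.2%, at the lower ones. Of the lower sites 3.88% were near a start, against 19.0% of those not called.

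**Figure D4:**
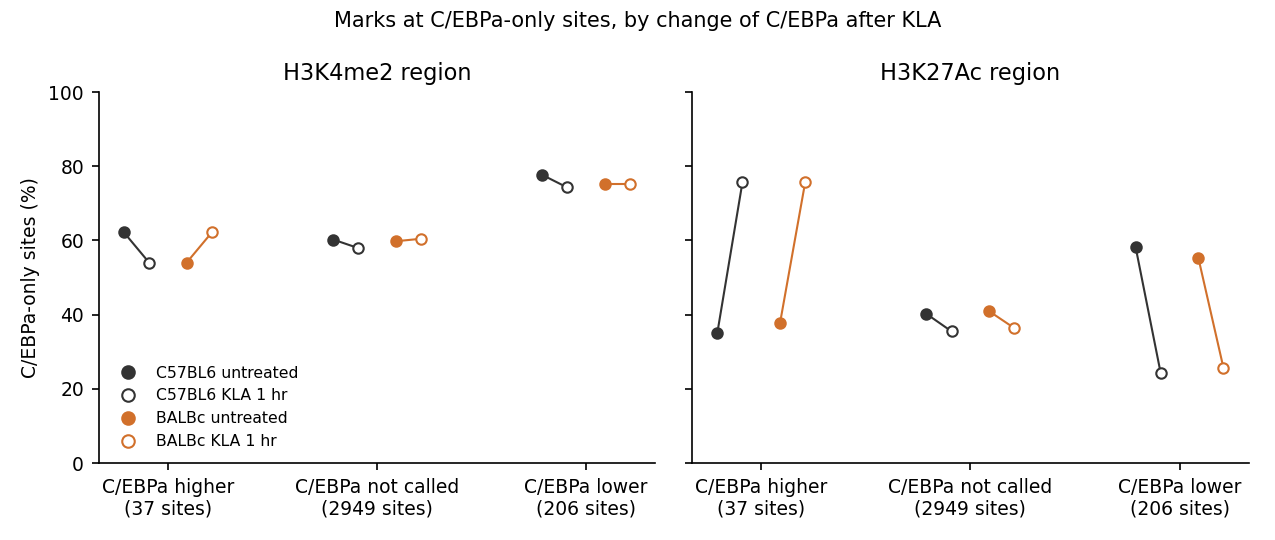
Percent of C/EBPa-only sites in an H3K4me2 region (left) and in an H3K27Ac region (right), for sites with higher C/EBPa after KLA (37), not called (2949) and lower (206), with 1 point per library. H3K27Ac goes from 35.1% and 37.8% to 75.7% where C/EBPa was higher and from 58.3% and 55.3% to 24.3% and 25.7% where it was lower, and H3K4me2 moves little and not the same way in both strains.

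Over all C/EBPa-only sites, H3K27Ac coverage was lower after KLA in both strains, at 30.9% and 31.8%. Of 2055 sites with H3K27Ac in both strains untreated, 369 (17.96%) lost it in both, and of 3339 sites without it in either strain untreated, 92 (2.76%) gained it in both. The gain was 7.47% over all shared sites, 2.91% with PU.1 and no p65, and 6.96% with p65 and no PU.1. The loss in both strains was 15.4% over all shared sites, 18.9% with PU.1 and no p65, and 13.9% with p65 and no PU.1. Peaks of treated cells took part in choosing these 3 sets. The part of this choice in their gains and losses was not tested. H3K27Ac libraries of treated cells also listed fewer regions (25937 and 26009, against 26992 and 26985 untreated), and the part of this in the shares was not tested. H3K4me2 coverage after KLA was 55.4% and 57.2%, and 2678 sites (45.0%) lay in H3K4me2 in all 4 libraries and 1915 (32.2%) in none.

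RNA of genes near C/EBPa-only sites was tested with limma across all genes, with the strains as the 2 libraries of each treatment and the same rule for a call. A change of RNA in these bulk samples cannot tell fewer cells from less RNA per cell. After 1 hr 1.82% of 10692 tested genes were called higher and 1.43% lower, and of the 2165 tested genes with a C/EBPa-only site within 20000 bp 57 (2.63%) were higher and 28 (1.29%) lower. After 4 hr the shares over all genes were 8.1% and 21.3%, and near these sites 208 (9.61%) and 558 (25.8%). In GRO-Seq after 1 hr they were 4.31% and 15.5% of 9110 genes, and 127 (6.55%) and 351 (18.1%) of 1938 near these sites. The median change near these sites was -0.22, -0.52 and -0.35 in the 3 comparisons, against -0.21, -0.47 and -0.34 over all genes. Genes near sites with PU.1 and no p65 had 2.61% higher and 1.56% lower at 1 hr, and 9.75% and 26.3% at 4 hr. In GRO-Seq they had 5.47% and 20.48%. Genes near sites with p65 and no PU.1 had 3.12% and 1.67% at 1 hr, and 11.9% and 25.2% at 4 hr. In GRO-Seq they had 6.09% and 18.04%. The shares of both sets were above those of all genes too, so such an excess was not particular to C/EBPa-only sites.

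All gene medians were below 0, and relative to the median gene (each library centred) the split changed. At 4 hr genes near C/EBPa-only sites then had 294 higher and 302 lower (11.7% and 9.74% over all genes), in GRO-Seq 201 and 187 (6.78% and 7.08%) and at 1 hr 67 and 17 (2.25% and 0.73%). Changes of named genes below are followed by the value relative to the median gene where the direction or the call differs.

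The genes near C/EBPa-only sites with the largest called rises included the following. Il1a, the interleukin 1 alpha gene (chr2:129125345-129135708), had 676 and 954 RNA tags untreated, 25896 and 31106 after 1 hr and 47520 and 53893 after 4 hr (5.13 ± 0.16 and 5.96 ± 0.16). Of its 2 C/EBPa-only sites the stronger, 775 bp inside the gene, had 106.2 and 110.5 tags untreated. After KLA it had 80.1 tags in C57BL6/J and no overlapping peak in BALBc/J. Gm14023 overlaps Il1a on the chromosome, and how far the pair shares tags was not tested. Nfkbiz, an NF-kB inhibitor family gene, rose by 6.69 ± 0.17 at 1 hr, and its site inside the gene, 1096 bp from the nearest listed start, kept C/EBPa at 82.2 and 98.2, then 74.4 and 103.7. Nos2, the inducible nitric oxide synthase gene, had 5.30 and 4.68 tags untreated and 889 and 1752 at 4 hr (6.39 ± 0.27), and its site 1133 bp upstream (54.1 and 68.4 tags) had no C/EBPa peak after KLA in either strain. The chemokine genes Ccl4 and Ccl5 and the antiviral Mx1 and Mx2 rose by 6.59, 7.20, 7.20 and 6.83 at 4 hr. The sites of Ccl4 and Ccl5 (12.3 to 38.1 tags) were also without a peak after KLA. That of Mx1 had a peak in C57BL6/J alone (15.3 tags), and that of Mx2 in BALBc/J alone (13.4 tags). Dusp1, a phosphatase of MAP kinases, rose by 4.79 at 1 hr, and Socs3, a brake on cytokine signalling, by 4.07 in GRO-Seq. The Dusp1 site (40.1 and 49.1 tags) had no peak after KLA in either strain. The stronger Socs3 site went from 48.1 and 50.9 tags to 62.9 and 53.7.

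Genes that fell most included several with a site at the start. Fbxo32 had 3222 and 4028 RNA tags untreated, 2082 and 2368 after 1 hr and 60.7 and 85.1 after 4 hr (-5.46 ± 0.17), and in GRO-Seq 379 and 586, then 8.41 and 24.7 (-4.25 ± 0.34). Its site kept C/EBPa at 143 and 147.8 tags. Mnt went from 756 and 744 to 17.8 and 56.4 at 4 hr (-4.15 ± 0.37), and its site also stayed above 196 tags. Cxcr4, a chemokine receptor gene, fell by 4.68 at 4 hr, and its stronger site, 5278 bp from the start and past the gene's end, had 110.2 and 192.9 tags untreated and 32.4 and 42.2 after KLA. Sesn1, a stress-induced regulator of growth signalling, and Zfp395 fell as well (-4.28 and -3.95). At 1 hr Arrdc3, an arrestin-like adaptor gene, Ier5l, Zbtb39, the kinase gene Sik1 and Lcmt2 fell (-2.47, -2.16, -1.88, -1.82 and -1.60). In GRO-Seq Fam198b, Tifab, Arhgap25 and Gramd4 fell (-3.09, -2.98, -2.89 and -2.81).

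The bZIP family of C/EBPa was followed as a list, and 11 of its 25 genes had a C/EBPa-only site within 20000 bp. Over all 22865 genes 2837 had one. Many of those genes did not reach the level needed for a test. Among genes tested in RNA-Seq, 11 of the 24 on the list had a site, against 2165 of 10692. Whether the list differs in this between C/EBPa-only sites and other C/EBPa sites was not tested. Of these 11, 3 rose and 1 fell at 1 hr and 1 rose and 5 fell at 4 hr, and over the whole list 4 of the 24 tested rose and 1 fell, then 3 and 9. Over all tested genes 1.82% rose and 1.43% fell at 1 hr, and 8.1% and 21.3% at 4 hr. Cebpa itself, with 2 sites, had 3144 and 3180 RNA tags untreated, 1338 and 1541 after 1 hr and 364 and 273 after 4 hr. At 1 hr the change was -1.13, called in the fit as given but not relative to the median gene (-0.92), and at 4 hr it was -3.29 ± 0.20. Its stronger site, 2144 bp from the start, had 28.1 and 42.1 tags untreated and 47.7 and 28.8 after KLA. Cebpg, the gene of a C/EBP without an activation domain, fell by 1.47 at 4 hr, and its strongest of 3 sites had 136.3 and 170.1 tags, then 47.7 and 49.9. Tef, a clock-controlled bZIP gene, fell by 2.60 at 4 hr.

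Subunits of AP-1, a bZIP dimer of Fos and Jun proteins, rose early. Junb had 4174 and 5101 RNA tags untreated, 28023 and 32039 at 1 hr and 8292 and 7725 at 4 hr (2.70 ± 0.16 at 1 hr). Fos rose by 3.93 and Jun by 1.26 at 1 hr, and at 4 hr both fell (-1.20 and -2.29, Fos at -0.77 and not called relative to the median gene). In GRO-Seq at 1 hr Fos and Jun were lower (-1.09 and -1.35), and neither was called relative to the median gene (-0.74 and -0.99). Batf, an AP-1 family member without an activation domain, rose by 2.58 at 4 hr, from 95.4 and 144 tags to 805 and 701. After Nfil3, the strongest site of the list was that of Fosl2, 3103 bp inside the gene, at 246.5 and 250.8 tags untreated and 263.1 and 286 after KLA. Its RNA changed by 0.46 ± 0.17 at 1 hr and was not called. Nfil3, with 3 sites, went from 425 and 411 RNA tags to 338 and 235 at 4 hr and was not called (-0.55, or -0.12 relative to the median gene). Jund changed by -0.10 at 1 hr and 0.05 at 4 hr (0.12 and 0.48 relative to the median gene) and was not called in RNA-Seq. Atf5 changed by -0.20 and -0.27 (0.015 and 0.16 relative to the median gene) and was not called either.

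**Figure D5:**
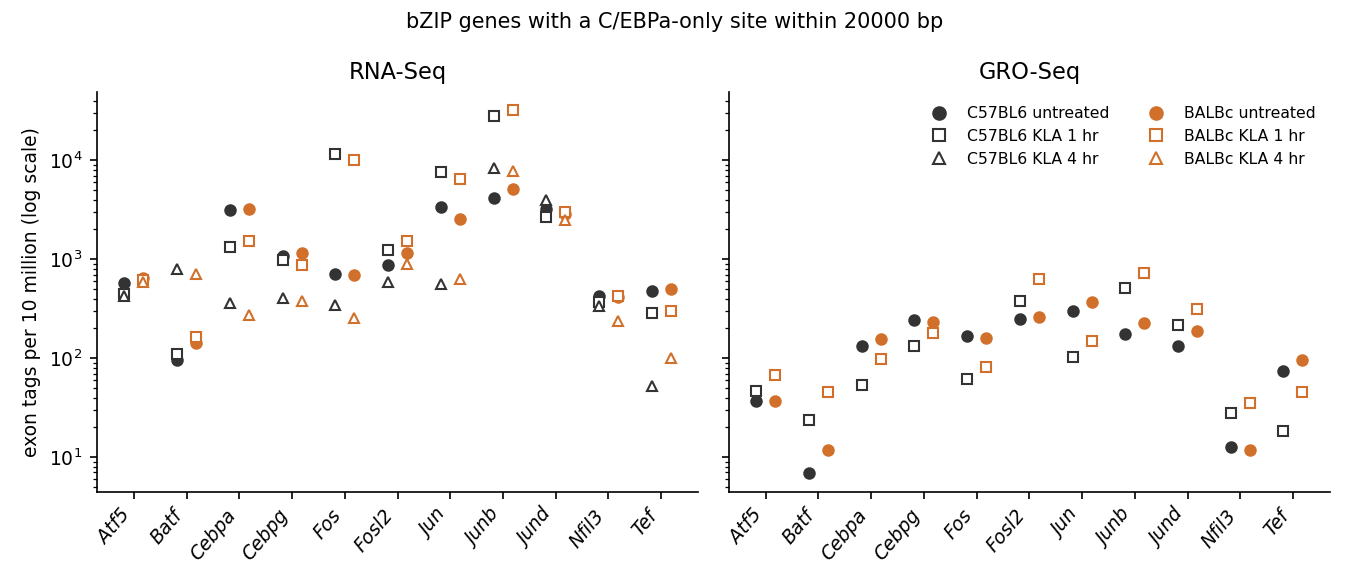
Exon tags per 10 M (log axis) in RNA-Seq (left, untreated and after KLA for 1 and 4 hr) and GRO-Seq (right, untreated and after KLA for 1 hr) for the 11 bZIP genes with a C/EBPa-only site within 20000 bp, with 1 point per library. Fos, Jun and Junb are high at 1 hr in RNA-Seq, and Cebpa goes from 3144 and 3180 tags untreated to 364 and 273 at 4 hr.

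Lists of C/EBP target genes were followed in the same way. Of 29 integrated stress response targets, which C/EBP and ATF dimers control, 9 had a site. Of the 7 of these tested, none was called at 1 hr (limma, 1 lower at an unadjusted p under 0.05) and 4 fell at 4 hr. Over the whole list 2 of the 23 tested rose and 0 fell at 1 hr, and 3 rose and 7 fell at 4 hr, where 8.1% of all tested genes rose and 21.3% fell. Sars, the seryl-tRNA synthetase gene, had a site 1039 bp inside at 134.3 and 182.4 tags untreated and 123.9 and 172.8 after KLA. Its RNA went from 1205 and 1567 to 573 and 664 at 4 hr, where it fell by 1.14, not called relative to the median gene (-0.71). Sesn2 and Cebpg fell (-1.50 and -1.47), as did Herpud1, an endoplasmic reticulum stress gene (-1.02, but -0.59 relative to the median gene, not called). Atf5, Gars and Nars were tested and not called, and Aldh1l2 and Phgdh did not reach the level needed for a test.

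Of 22 C/EBP targets of fat and liver 4 had a C/EBPa-only site, Agpat2, Dgat2, Lpl and Pparg. Of these 4, all tested, 0 rose and 1 fell at 4 hr. Over the whole list 1 of the 11 tested rose and 4 fell, where 8.1% of all tested genes rose and 21.3% fell. Pparg, the gene of the nuclear receptor that directs fat cells, had 1006 and 976 RNA tags untreated, 1409 and 1148 at 1 hr and 107 and 112 at 4 hr (-3.07 ± 0.18). Its site 8596 bp inside had 24.1 and 31.6 tags untreated and 15.3 and 38.4 after KLA. Lpl, the lipoprotein lipase gene, had 28327 and 10906 RNA tags untreated and 17074 and 6485 at 4 hr, and was not called (-0.74 ± 0.15, under the size needed for a call). Dgat2, a triglyceride synthesis gene, went from 4.12 to 14.3 in C57BL6/J and from 79.6 to 27.03 in BALBc/J at 4 hr and was not called (-0.25, or 0.18 relative to the median gene). Of 26 C/EBP targets of myeloid cells 4 had a site, Chi3l3, Elane, Il6ra and Mrc1. Of the 3 of these tested, 0 rose and 1 fell at 4 hr. Over the whole list, with or without a site, 7 of the 18 tested rose and 2 fell. Il6ra, the interleukin 6 receptor gene, fell by 2.97 at 4 hr, from 475 and 480 tags to 40.5 and 67.3. Mrc1, the mannose receptor gene, and Chi3l3 were not called, and Elane, the neutrophil elastase gene, was at 0 to 1.77 RNA tags in all 6 libraries.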

How the data were processed

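Peaks and regions of 20 ChIP-Seq libraries and an expression table of 10 libraries were used. Reads were aligned with Bowtie 0.12.7 and peaks called with HOMER on mm9, per the submitters' processing notes. Per the file headers, peaks needed 4-fold more tags than input and than the surrounding 10000 bp at an FDR of 0.001, with 400 bp between factor peaks. The peak signal deposited by the authors is tags per 10 M, listed only where a peak was called, beside a ratio (fold over input and over local tags) and a fraction (share of tags in the peak's centre), used only to describe peaks. The lists were called on each sample alone, and the headers of the BALBc/J p65 lists name C57BL6/J input as control. The authors deposited expression as log2 of 1 plus exon tags per 10 M. Whole tags were recovered from it.

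Overlap needed 1 bp. A gene was assigned to a site by the nearest start of 29028 transcripts, of which 21 rows lacked a symbol, leaving 22865 genes. Genes entered limma 3.58.1 (R 4.3.3, lmFit and eBayes with trend, Benjamini-Hochberg adjustment) at 20 tags per 10 M in at least 2 libraries, on log2(tags + 10), which understates changes of low values. p-values rest on how far the change after KLA differs between the strains, with 1 library each, and this difference may be technical. The GRO-Seq and C/EBPa fits have 4 libraries each and leave 1 residual degree of freedom, so their p-values rest almost wholly on the spread pooled over genes or sites. Data were simulated with a fixed spread and no difference between strains in level or in the change after KLA. Of features changed by 2 or 3 on the log2 scale, 96 to 100% of C/EBPa sites were recovered. So were 98 to 100% of 4 hr RNA-Seq genes and 97 to 98% of GRO-Seq genes. Changes of 1, the size needed for a call, were not simulated. Recovery at the spread of the real libraries is therefore not known. Other tools were Python 3.11.15, pandas 2.3.3 and numpy 2.4.6.

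Named sites were, by rule, the 10 strongest, the 10 strongest within 1000 bp of a start, the 5 strongest in no H3K4me2 region, the 5 largest rises and falls, and the 3 nearest to PU.1. A site that this rule names is not reported here. Named genes were the 5 largest called changes in each direction and comparison, and list genes near a site. The 5 promoters printed were chosen after their letters were seen, from the 12 strongest sites with a single reference promoter. Sites and lists were chosen with earlier results of these data known, and the splits by PU.1 distance, by mark and by call were added after seeing the data. Chromosome 18 was not used in the promoter search, a choice made after seeing the share of genes that matched.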

Additional observations from a re-analysis of the deposited data

Results flagged for a closer look

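Opposite directions in the strains drew attention to the following changes after KLA, given for C57BL6/J and then BALBc/J. With 1 library per strain and treatment, none of these differences was tested. The share of C/EBPa-only sites in an H3K4me2 region changed by -2.12 and 0.37 percentage points. C/EBPa tags on the log2 scale changed by -0.06 and 0.09 at the Ifngr2 site, -0.18 and 0.04 at Cdkl4, 0.04 and -0.38 at Tm9sf4, -0.14 and 0.09 at Mnt, and 0.02 and -0.04 at Mterfd3.

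RNA at 1 hr changed on the log2 scale by -0.25 and 0.06 for Jund, -0.19 and 0.03 for Nfil3, -0.05 and 0.21 for Nos2, and -0.23 and 0.05 for Sars. At 4 hr Dgat2 changed by 0.78 and -1.27, the widest difference among these genes, and Jund by 0.30 and -0.20. GRO-Seq at 1 hr changed by -0.40 and 0.36 for Gars, 0.01 and -0.01 for Mrc1, -0.77 and 0.21 for Nars, -0.20 and 0.10 for Sesn2, -0.97 and 0.12 for Sik1, and -0.40 and 0.31 for Zbtb39. None of these genes or sites was called in the comparison named.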

How the results depend on the processing

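The number of C/EBPa-only sites was 3932 with no PU.1 peak allowed within 500 bp, 1458 with stricter peaks (tags at or above the median of shared sites in both strains) and 10807 without the p65 exclusion, and 6297 to 6896 when one p65 replicate was left out. Averaged over strains, 65.4% had C/EBPa after KLA. Under those 3 settings the share was 63.8%, 88.7% and 76.8%, it was 66.1% to 68.2% without one p65 replicate, and 66.8% with the C57BL6/J p65 lists alone, an alternative chosen after seeing the data. From the lowest to the highest quartile of tags it was 46.5%, 69.3%, 84.7% and 92.1%. H3K4me2 covered 57.2% untreated, and under the 3 settings 42.7%, 79.0% and 64.9%. With 100 bp of overlap it covered 58.1%, with a region within 500 bp 64.6%, and by quartile 42.7%, 57.9%, 71.2% and 86.6%. H3K27Ac covered 39.2%, and under the same settings 24.6%, 61.3% and 45.9%, then 42.6% and 45.0%, and by quartile 24.0%, 40.4%, 51.7% and 73.1%. The share near a start (15.1%) was 7.78% with no PU.1 within 500 bp, 18.04% with stricter peaks, and 9.18% and 31.3% with near set to 500 and 5000 bp. The cause of these moves was not tested, beyond the change of the set itself.

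Calls of C/EBPa at C/EBPa-only sites (37 higher, 206 lower) were 59 and 324 with a pseudocount of 2, and 2 and 29 with 50. Without the filter, limma called 2 genes higher and 0 lower at 1 hr (110 and 363 at an unadjusted p under 0.05). It called 143 higher and 284 lower at 4 hr, and 0 and 0 in GRO-Seq (208 and 614). Centring on the median gene left 17 lower at 1 hr and 302 at 4 hr, and gave 201 higher and 187 lower in GRO-Seq. A pseudocount of 50 gave 83 and 116 in GRO-Seq. Shares over all sites or genes are given above for centring, but were not taken for other pseudocounts or without the filter. Counts under those settings therefore do not set C/EBPa-only sites against the rest. Genes within 5000 bp, a smaller set, had 33 higher at 1 hr, 119 higher and 339 lower at 4 hr, and 71 and 206 in GRO-Seq. Over single genes and sites, 700 alternative values kept direction and call, 69 lost the call, 11 gained it and 19 changed sign. All 19 came with centring, and none of these was a called change. At 1 hr they were Atf5 (0.015), Gars (0.070), Jund (0.12), Lpl (0.087), Nars (0.15), Nfil3 (0.14) and Sars (0.12), and at 4 hr Agpat2 (0.079), Atf5 (0.16), Chi3l3 (0.40) and Dgat2 (0.18). In GRO-Seq they were Gars (0.33), Lcmt2 (0.15), Nars (0.067), Sesn2 (0.30) and Zbtb39 (0.30), and for C/EBPa the sites of Mterfd3 (0.069), Mnt (0.056) and Cdkl4 (0.011).

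No paired analysis was possible because no groups compared share replicate numbers: p65, the only numbered assay, was measured after KLA alone. Libraries are matched by strain, which is a term of every fit. Tags are listed only where a peak was called, so C/EBPa below about 12.3 to 14.0 tags per 10 M was not detectable.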
